A study of Homo sapiens with 13 samples.

Results

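Nucleolin (NCL, ENSG00000115053) is encoded on the minus strand of chromosome 2, from 231453531 to 231483641 in the GRCh38 coordinates of the deposited count table. It was followed through a data set on RNA binding by the splicing factor SRSF2. All windows that the authors' HITS-CLIP table assigns to NCL were taken in genomic order and merged where they overlapped, which gave 190 of the 8100 distinct windows in that table and 12 regions. HITS-CLIP recovers RNA crosslinked to a protein by ultraviolet light, and here the protein was precipitated through a Flag tag. The gene was also read in 5 RNA-seq libraries. NCL was chosen by its HITS-CLIP values in the same table, its number of windows and their mean signal, so these values are given as a description and not tested.

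The samples were HEL cells, a human erythroleukemia line, stably transfected with SRSF2 under doxycycline control. HITS-CLIP was made from 4 samples with SRSF2 P95H, a substitution recurrent in myelodysplastic syndromes, and from 4 with wild-type SRSF2 (WT), after 36 hours in doxycycline at 1 µg/ml for all 8. The rRNA-depleted RNA-seq libraries came from 2 P95H and 2 WT samples after 48 hours in the same dose, plus a single P95H sample that the labels call uninduced. Numbered samples are called biological replicates there without a word on how cultures were kept apart, so p-values measure the spread between these samples. Total counts per RNA-seq library ran from 37414093 to 45005605. Of 10 erythroid and megakaryocyte markers 9 stood at 1 CPM (counts scaled to library total) or more in every RNA-seq library, PF4 being the exception with at most 2 counts, whereas 4 of 4 lymphoid markers stayed under 1 CPM. Of 4 epithelial and fibroblast markers 3 stayed under 1 CPM, EPCAM at 0 counts throughout, and the fourth, the keratin gene KRT8, had 6.83 to 7.93 CPM in P95H, 5.11 to 7.39 CPM in WT and 5.28 CPM in the uninduced library.

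Nucleolin is an abundant nucleolar protein with acidic stretches, RNA recognition motifs and a glycine- and arginine-rich tail. It takes part in transcription of ribosomal RNA genes, in pre-rRNA processing and in ribosome assembly, and it also binds mRNAs. Introns of its gene host small nucleolar RNAs, among them SNORD82, SNORD20 and SNORA75, which guide modification or processing of ribosomal RNA. SRSF2 is an SR protein that recognises exonic sequences during splicing, and the P95H change lies next to its RNA recognition motif.

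SRSF2 P95H gave less HITS-CLIP signal than WT at all 190 NCL windows. Among all distinct windows of the authors' deposited table, a share of 77.7% was lower in P95H, so this direction prevailed generally. That table lists windows with an authors' adjusted p (FDR) of at most 0.05 and a log2 change of P95H over WT of at least 1 in size, and NCL windows that did not meet these limits were not analysed here. NCL had a median log2 change of -1.82 and a range from -9.42 to -1.12 in the authors' deposited table, where windows lower in P95H had a median of -1.96. No gene had more windows. NCL was followed by ANP32B with 108, an acidic histone chaperone, PTMA with 103, the acidic protein prothymosin alpha, HMGB2 with 89, a DNA-bending chromatin protein, and HSP90AA1 with 69, a cytosolic chaperone. Among genes with any listed window the median was 2 windows.

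NCL windows reached the highest signal in the table for both proteins. In the authors' deposited table its highest mean was 276.66 CPM for P95H and 851.69 CPM for WT, against highest means of 136.61 CPM for P95H, in RNU5B-1, and 252.57 CPM for WT, in HSP90AB1, outside NCL. All 64 windows with a WT mean of at least 500 CPM belonged to NCL. The depth of the HITS-CLIP libraries, and the total to which their CPM refer, is unknown.

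The windows spanned 8055 bases, from 231455245 to 231463300, written as the table gives them, since it does not state whether starts count from 0 or from 1. The 5′ edge of the first window in transcript direction lay 1184 bases downstream of the RefSeq 5′ end of NCL, at 231464484 (RefSeq on GRCh38.p14). The entry of the count table reaches further upstream, to 231483641, and spans 30111 bases. Distances and coverage given here refer to the RefSeq gene alone. The regions covered 635 bases, or 5.80% of the 10954 bases of the RefSeq gene, and they are numbered 1 to 12 from 5′ to 3′. Exons and introns cannot be assigned here, because no transcript model of the files' build was used. The authors assigned 129 windows to protein-coding transcripts of NCL and 61 to transcripts that retain an intron.

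**Figure D1:**
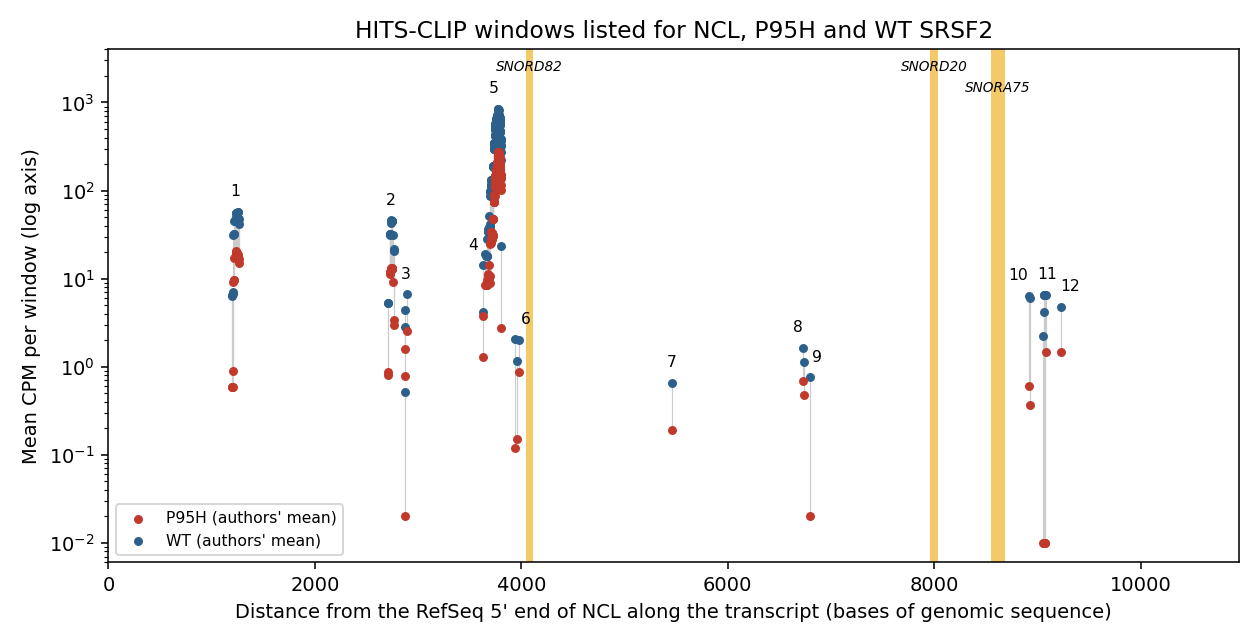
Authors' mean HITS-CLIP CPM (log axis) of the 190 NCL windows for P95H (red) and WT (blue) against distance from the RefSeq 5′ end of NCL, with grey lines joining the values of a window, region numbers above, and snoRNA genes in yellow. Region 5 stands far above the other 11, P95H lies under WT in every window, and P95H means listed at 0 are drawn at 0.01 CPM.

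Region 5 carried most of the signal. It ran from 231460668 to 231460842, 226 to 400 bases upstream of SNORD82 in transcript direction, and held 128 windows, 67.4% of those of NCL. Averaged over its windows, which overlap and share reads, the means in the authors' deposited table came to 136.5 CPM for P95H and 441.8 CPM for WT, 3.24-fold lower in P95H. At its highest WT window, 231460698 to 231460718, the authors' deposited table gives 271.70 CPM (SE 242.64) for P95H and 851.69 CPM (SE 784.21) for WT, with a log2 change of -1.65 and an FDR of 6.11e-04.

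These standard errors are nearly as large as the means. An SE equal to the mean arises when 1 sample of a group holds all of the signal. If the deposited SE is the SD over 4 samples divided by the square root of their number, then 1 sample held between 84.8% and 92.0% of the summed P95H signal at that window, and 1 sample held between 88.6% and 94.1% of the summed WT signal. The table gives no values per sample, so which samples these were cannot be told. The authors' mean ± SE of both proteins overlapped in all 128 windows of region 5, and lay apart in 22 of the 190 NCL windows and in 31.2% of windows over the whole table. Among windows with a mean of at least 1 CPM, the median SE was 0.853 of the mean for P95H and 0.911 for WT in NCL, against 0.706 for P95H and 0.717 for WT over all windows.

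The size of the difference varied along region 5. Taken in steps of 20 bases by window start, from the 5′ edge, the median log2 change in the authors' deposited table was -1.16 in 2 windows, -1.62 in 6, -1.98 in 12, -2.01 in 13, -1.97 in 20, -1.91 in 24, -1.59 in 27 and -1.41 in 24. P95H signal was thus furthest below WT in the 5′ flank of the peak, where medians were 31.2 CPM for P95H and 127.5 CPM for WT. It was nearest to WT at both edges, the last window at the 3′ edge excepted. The steps from -1.91 to -2.01 differed little. The median WT SE was 0.912 of the mean in the lowest step and 0.624 at the 5′ edge, and differences between steps were not tested. Against a line drawn through the protein-coding windows, 43 of the 44 windows assigned to intron-retaining transcripts deviated by at most 0.16 in log2 change. These windows overlap and share reads with their protein-coding neighbours, so that closeness does not compare the transcript classes. The remaining window, at the 3′ edge, lies beyond that line, and its deviation of 2.09 is from the nearest protein-coding window. That window, from 231460668 to 231460688 and assigned to an intron-retaining transcript, had 2.76 CPM for P95H and 23.62 CPM for WT with a log2 change of -3.26 in the authors' deposited table. The window starting 2 bases upstream of it in the transcript, assigned to a protein-coding transcript, had 100.25 CPM for P95H and 224.36 CPM for WT and a log2 change of -1.17. The edge window also has the smallest FDR of region 5, so a value taken from that window (-3.26) is far from the mean log2 change over the region (-1.76).

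**Figure D2:**
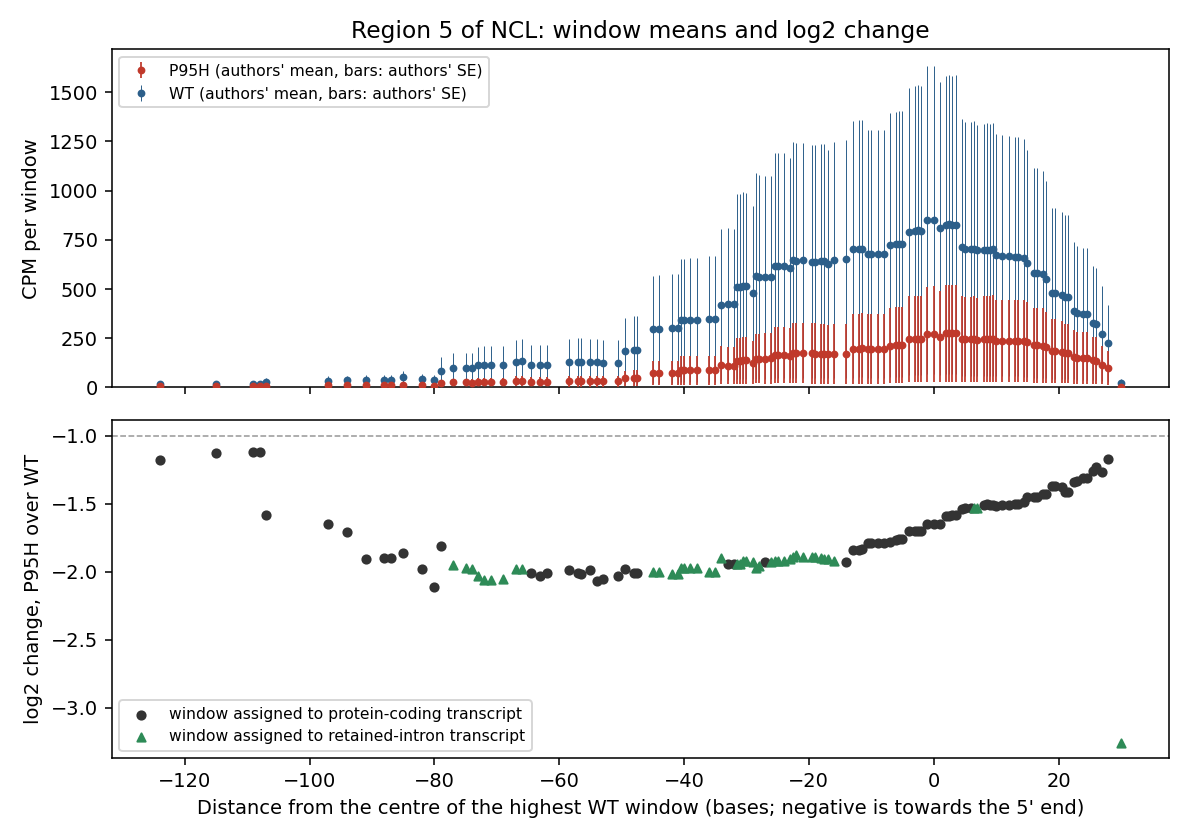
Upper panel, authors' mean CPM with SE bars for P95H (red) and WT (blue) in the 128 windows of region 5, against distance from the centre of the highest WT window; lower panel, the authors' log2 change of P95H over WT, by class of assigned transcript, with a dashed line at -1. The log2 change dips to about -2 upstream of the summit and is -1.65 at the summit, and the SE bars of the proteins overlap throughout.

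Regions 1 to 4 lay upstream of the peak. In the authors' deposited table the 23 windows of region 1, from 231463213 to 231463300, averaged 14.1 CPM for P95H and 41.1 CPM for WT, and 13 of them were assigned to the intron-retaining transcript NCL-009. Its 5′ end stood apart from the rest. The 4 windows starting at or beyond 231463265 had P95H means of at most 0.89 CPM, WT means of at least 6.29 CPM, and log2 changes from -3.37 to -2.88 in the authors' deposited table, while the other 19 lay between -1.75 and -1.31. Region 2, from 231461704 to 231461785, averaged 9.68 CPM for P95H and 32.9 CPM for WT over 16 windows. Region 3, from 231461583 to 231461625, averaged 1.24 CPM for P95H and 3.59 CPM for WT over 4 windows.

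Region 4 had the smallest relative error for WT in the gene. It consisted of 2 windows between 231460843 and 231460869, a single base from region 5 as the table writes them. Its higher window had 3.78 CPM (SE 2.43) for P95H and 14.27 CPM (SE 4.61) for WT, with a log2 change of -1.87 and an FDR of 1.46e-04 in the authors' deposited table. The WT SE was 0.323 of the mean there, and mean ± SE lay apart in both windows of the region. Under the same reading of the SE, 1 sample held between 32.8% and 49.2% of the WT signal, where an even spread over 4 samples gives 25%.

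Downstream of the peak, signal in the authors' deposited table was low for both proteins. Region 6, 59 bases upstream of SNORD82, averaged 0.383 CPM for P95H and 1.73 CPM for WT over 3 windows. Regions 7, 8 and 9, between 231457675 and 231459034, held 4 windows in all, with P95H means of 0.02 to 0.69 CPM and WT means of 0.66 to 1.64 CPM.

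Regions 10 to 12 lay in the 3′ part of the gene and included the largest log2 changes. In region 11, from 231455392 to 231455442, 6 of 7 windows had P95H means listed at 0.00 or 0.01 CPM, against WT means of 2.22 to 6.52 CPM, and the seventh had 1.48 CPM for P95H and 6.51 CPM for WT. The log2 changes of the 6 ran from -9.42 to -6.24 in the authors' deposited table. With P95H at or next to 0 such values depend on how the authors' fit treats zeros and are no measure of fold. The WT SE at the highest of these windows was 5.97 of 6.52 CPM, 0.916 of the mean. Region 10, from 231455544 to 231455571, had smaller errors relative to its means, with 0.61 CPM (SE 0.29) for P95H and 6.41 CPM (SE 3.40) for WT at its higher window and a log2 change of -3.27 in the authors' deposited table. Mean ± SE lay apart in both windows of region 10. Region 12, the window from 231455245 to 231455265, had 1.48 CPM (SE 1.44) for P95H and 4.80 CPM (SE 4.44) for WT.

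**Figure D3:**
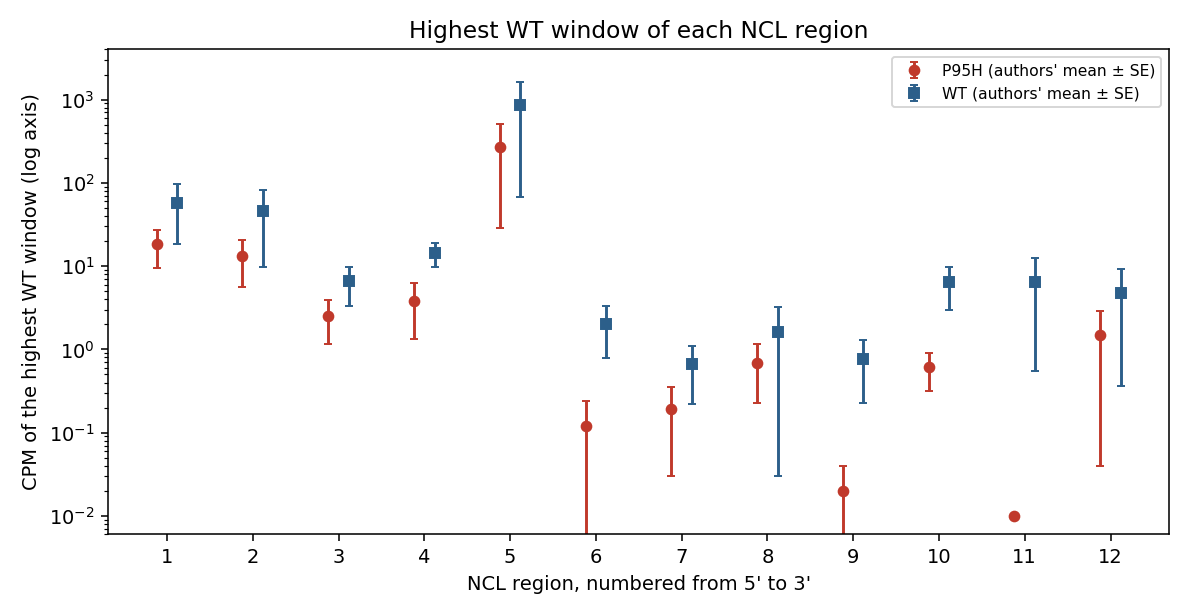
Authors' mean CPM with SE bars (log axis) at the highest WT window of each NCL region, P95H as red circles left of WT as blue squares. The P95H mean is the lower in all 12 regions, bars overlap in region 5, and they lie apart in regions 4, 6, 9, 10 and 11; the P95H mean of region 11, listed at 0.00, is drawn at 0.01 CPM, and the lower P95H bars of regions 6 and 9 reach 0.

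The small nucleolar RNAs inside the gene are listed under their own names and did not share a direction. SNORD20, from 231456444 to 231456523, had 2 windows that were higher in P95H, the first with 3.40 CPM (SE 2.92) for P95H and 0.95 CPM (SE 0.61) for WT and a log2 change of 1.98 in the authors' deposited table (FDR 8.31e-04). SNORD82 had 1 window, lower in P95H, with 1.15 CPM (SE 1.09) for P95H and 3.69 CPM (SE 1.89) for WT and a log2 change of -1.59 (FDR 0.00235). The mean ± SE ranges of P95H and WT overlapped for both snoRNAs. The difference between the 2 snoRNAs was not tested. In RNA-seq SNORD20 was at 0 counts in all 5 libraries and SNORD82 had 12 and 26 counts in P95H, 9 and 15 in WT and 13 in the library labelled uninduced. The entry AC017104.3, from 231456417 to 231456557 on the same strand, spans SNORD20. It had 12 and 44 counts in P95H, 16 and 16 in WT and 13 in the uninduced library. How reads on overlapping entries were counted is not given, so 0 counts for SNORD20 need not mean absence. The SNORA75 entry of the count table lies on chromosome 4 and is not the NCL copy.

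The RNA-seq counts ask whether the amount of NCL RNA differed between the same genotypes. NCL had 100692 and 116527 counts in P95H and 115180 and 106175 in WT, and 86215 in the library labelled uninduced. Scaled to library size by TMM, a trimmed mean of log ratios, these were 2552 and 2626 CPM in P95H, 2541 and 2632 CPM in WT, and 2300 CPM in the uninduced library. Values of P95H and WT overlapped, and the library labelled uninduced lay below all 4 others.

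**Figure D4:**
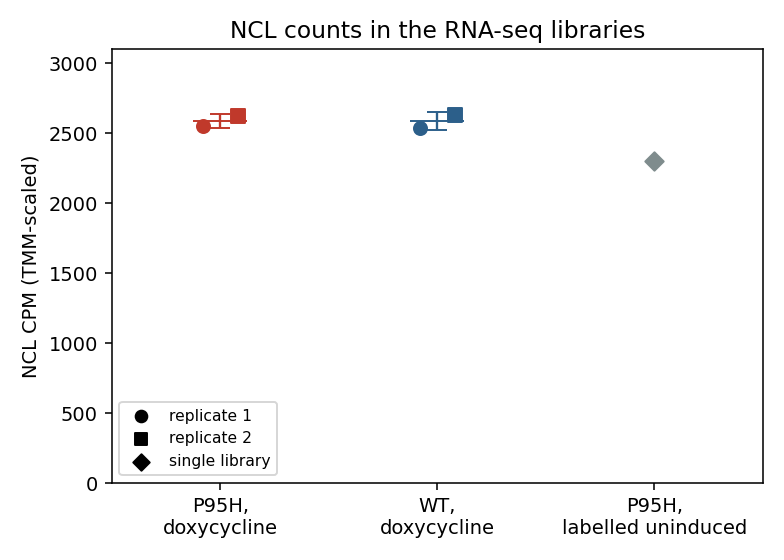
NCL counts in the 5 RNA-seq libraries as TMM-scaled CPM, with mean and SD for P95H (red) and WT (blue); circles are replicate 1, squares replicate 2 and the diamond the single library labelled uninduced. The replicated groups lie at the same height, 2589 and 2587 CPM, and the single library at 2300 CPM.

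NCL RNA averaged 2589 ± 52.3 CPM in P95H and 2587 ± 64.4 CPM in WT (SD, n = 2 each). The log2 change of P95H over WT was 0.012 (SE 0.127; 95% interval -0.30 to 0.32), with a Benjamini-Hochberg adjusted p of 1 in edgeR's quasi-likelihood test over 22007 genes. In linear terms the interval, which is not adjusted for the number of genes, runs from 0.814-fold to 1.25-fold. Differences in NCL RNA within that range are therefore not excluded by this fit with 2 libraries a group. The libraries also differed by replicate number, with mitochondrially encoded protein genes at 1.38% of counts in both replicate 1 libraries and 4.30% and 4.50% in P95H and WT replicate 2. Between libraries of the same number the log2 difference of NCL was 0.006 for replicate 1 and -0.004 for replicate 2. These differences and the CPM values were scaled over all 5 libraries. The fit that gave 0.012 was scaled over its own 4 libraries, so the values are not on exactly the same scale. The HITS-CLIP signal and the RNA level come from different samples and times of doxycycline, and no test relates them.

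Against the library labelled uninduced, NCL stood at a log2 change of 0.17 for P95H (SE 0.153; 95% interval -0.19 to 0.54; edgeR adjusted p 0.972) and 0.17 for WT (SE 0.153; edgeR adjusted p 0.907). Both comparisons share that library, and its spread is assumed to equal that of the replicated groups. Mitochondrially encoded protein genes made up 4.14% of counts in that library, near replicate 2 and above the 1.38% of replicate 1. Both comparisons thus mix induction with this difference between replicates. The uninduced library is P95H, so any comparison of WT with it, also for the pathway genes below, differs in genotype as well. The parts of each comparison were not tested. SRSF2 itself was at 223.1 and 252.0 CPM in P95H, 222.2 and 241.4 CPM in WT and 285 CPM in the single uninduced library. The counts thus did not show lower SRSF2 in that library. A single count per gene does not separate the transfected SRSF2 from that of the cells' own gene, and whether induction took place was not tested.

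The other genes of the nucleolar pathway, a list of 40 factors of ribosomal RNA synthesis and ribosome assembly, gave the setting for NCL. None of the 40 passed edgeR's test for P95H against WT, where 0% of all genes tested did; at an unadjusted p under 0.05 there were 0 of the 40 and 227 of all genes, and DESeq2 also called 0 genes. Of the 40, 12 had a positive log2 change and 28 a negative one, with a median of -0.03, beside 50.5% positive and a median of 0.00 over all genes. The positive number moved with the setting, from 10 with DESeq2 to 19 without P95H replicate 1 or without WT replicate 2. POLR1A, the largest subunit of RNA polymerase I, stood lowest at -0.20, followed by the polymerase I subunit POLR1E and the ribosome assembly factors BOP1 and RRS1 at -0.14 each. The highest were TAF1D at 0.15, a polymerase I initiation factor, TOP1 at 0.07, a topoisomerase, NOP58 at 0.07, a core protein of box C/D small nucleolar ribonucleoproteins, and TAF1B at 0.06.

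For P95H against the library labelled uninduced none of the 40 passed either, again beside 0% of the 23970 genes tested. Without a filter on low counts TAF1C passed edgeR's test, as 1 of the 40, beside 92 of 39538 genes. At an unadjusted p under 0.05 there were 1 of the 40, NOP58, and 818 of all genes, and DESeq2 called 8 genes, none of them in the list. Of the 40, 20 had a positive log2 change, beside 50.2% of all genes. Across settings this number ran from 19 without P95H replicate 2 to 28 without P95H replicate 1. NPM1, the nucleolar chaperone nucleophosmin, stood at 0.33, NOP58 at 0.32, the RNA helicase DDX21 at 0.24 and EBNA1BP2, a ribosome assembly factor, at 0.19. The lowest were TAF1C, another polymerase I initiation factor, at -0.72, MYBBP1A at -0.32, BOP1 at -0.32 and NOP14, a factor of small subunit assembly, at -0.18. For WT against the same library 29 of the 40 were positive, beside 48.4% of all genes, and none passed edgeR's test, with 0 of the 40 and 1122 of all genes at an unadjusted p under 0.05 and 7 genes called by DESeq2.

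Among the 40, the authors' deposited table has windows for 16, numbering 70 in all, of which 60 (85.7%) were lower in P95H and 10 higher, beside 77.7% lower over all windows. Several of the 16 had windows in both directions. NPM1 had 7 lower and 4 higher, FBL, the methyltransferase fibrillarin, 11 lower and 1 higher, NOP56, the partner of NOP58 in box C/D particles, 1 lower and 2 higher, and UBTF, the polymerase I activator, and TOP1 1 of each. Only lower windows were listed for NOP14 with 13, TCOF1 with 8, the treacle gene, PES1 with 5, NOP2 and UTP20 with 3 each, POLR1A and WDR43 with 2 each, and TAF1D, DDX21 and MYBBP1A with 1 each. DKC1, the pseudouridine synthase dyskerin, had 1 window, higher in P95H. The highest WT window among the 40 was in NPM1, with 26.22 CPM (SE 9.89) for P95H and 54.25 CPM (SE 31.82) for WT, below the level of region 5 of NCL.

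The genes whose profile over the 5 RNA-seq libraries was closest to that of NCL were ETAA1, an activator of the ATR kinase, EIF5B, a translation initiation factor, GPN1, a GTPase, POLA1, the catalytic subunit of DNA polymerase alpha, and RNF19A, a ubiquitin ligase. Their Euclidean distances from NCL in centred log2 CPM were 0.0137 to 0.0263, against a median of 0.259 over 6071 genes whose mean log2 CPM was 5 or more. Like NCL they were lowest in the library labelled uninduced, which follows from choosing them by that profile. EIF5B had 60 HITS-CLIP windows and RNF19A 2, all of them lower in P95H, beside 77.7% of all windows. ETAA1, GPN1 and POLA1 had no listed window.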

How the data were processed

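HITS-CLIP and RNA-seq samples were grouped by the labels. For RNA-seq the authors deposited raw read counts by Ensembl gene. The interactome table holds the authors' log2 change of P95H over WT, the authors' FDR (an adjusted p-value, adjustment not stated), and the authors' mean CPM per genotype with its SE, all as deposited. Per the submitters' processing notes the tools were TopHat2 2.0.14, STAR 2.5.3a and edgeR, on GRCh38.p3, with no role stated for each. For the counter, strand use and annotation release: not given in the sources used here. If strand was not used, reads of overlapping genes cannot be told apart.

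Of 8324 entries 224 repeated a position, none of them NCL, and were counted once. NCL windows (20 or 21 bases) were merged where they overlapped. Region values are means over windows. Counts were tested in R 4.3.3 with edgeR 4.0.16 (filterByExpr, TMM, quasi-likelihood test, two-sided, Benjamini-Hochberg over all genes, threshold 0.05, no block), on 4 libraries for P95H against WT and 5 otherwise, after tests on simulated data. TMM factors ran from 0.958 to 1.04, and 3 counts correspond to 0.0667 to 0.0802 CPM. DESeq2 1.42.0 and the settings in the closing section were alternatives. Tables and figures used Python 3.11.15, pandas 2.3.3 and matplotlib 3.10.9.

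Named were NCL with all regions, the 5 genes with most windows, the 5 closest in RNA profile (log2 CPM, prior count 2), and of the 40 pathway genes the 4 highest and 4 lowest per main comparison and those with windows. HSP90AB1, RNU5B-1, AC017104.3 and the snoRNAs fall outside this rule and were named after their values were seen. NCL and these lists were chosen with earlier results of these data known. Window sequences were not analysed here, since no genome sequence was used.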

Additional observations from a re-analysis of the deposited data

How the results depend on the processing

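All 190 NCL windows counted were lower in P95H. Stricter limits kept 180 of them at an authors' FDR of at most 0.01 and 162 at a mean of at least 10 CPM. As subsets of windows that were all lower, these could not differ in direction. Regions numbered 11 when gaps of up to 20 bases were bridged and 17 when an overlap of 10 bases was required. Taking the window with the smallest FDR in place of the mean over windows gave log2 changes of -3.37 in place of -1.83 for region 1, -2.77 in place of -1.96 for region 2, -4.48 in place of -2.29 for region 3 and -3.26 in place of -1.76 for region 5. The window behind -4.48 in region 3 had 0.02 CPM for P95H and 0.51 CPM (SE 0.47) for WT. With P95H next to 0 its log2 change is no measure of fold, and it also enters the -2.29. The log2 ratio of the mean CPM of region 3 was -1.54. The letter counts of window sequences planned as a description were not run. NCL RNA did not pass in any setting run. Leaving out 1 library put its P95H against WT value between -0.02 and 0.028, -0.02 without P95H replicate 2 and -0.016 without WT replicate 1, so its sign is not determined; against the library labelled uninduced it lay between 0.148 and 0.21 for P95H and between 0.152 and 0.196 for WT. With the replicate block NCL stood at 0.012 for P95H against WT (edgeR adjusted p 0.991), where all genes called numbered 84 against 0 without it. Same-numbered P95H and WT libraries deviated together (r = 0.474 across genes, 2 pairs), and the labels do not say what a number shares. By mitochondrial share of counts the library labelled uninduced (4.14%) stood near replicate 2 (4.30% and 4.50%) and apart from replicate 1 (1.38%). For P95H against the library labelled uninduced the block gave 0.194 with that library placed in replicate 2 (edgeR adjusted p 0.295; 866 of 23970 genes called, 3.61%) and 0.148 in replicate 1 (0.326; 3685 called, 15.4%). Of the 40 pathway genes, 1 (2.5%) and 9 (22.5%; 4 higher, 5 lower) were called in these placings, and 1 without a filter on low counts beside 0.233% of all genes, against 0. For WT the block gave 0.193 and 0.147. Without a filter edgeR called 15, 92 and 128 genes in the 3 comparisons, against 0 in each. The causes were not tested. No other setting called a pathway gene for P95H against WT or against the uninduced library; for WT against the uninduced library the list was not counted under other settings. The HITS-CLIP table has no values per sample, so no sample could be left out there.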
